A study of Mus musculus with 16 samples.

Results

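Peritoneal macrophages of lipin-1 mutant mice were compared with control macrophages after exposure to bacterial lipopolysaccharide (LPS). The comparison holds 8 of the 16 arrays of the series, chosen by their titles: 4 labelled fld with LPS and 4 labelled control with LPS. The fld genotype is the fatty liver dystrophy mutation of Lpin1. The controls are labelled heterozygotes, so the control cells also carry a mutant allele. All 8 arrays are from males of the strain labelled BALB/cByJ-Lpin1fld/J, and no age is stated in the labels. Cells from the peritoneum were allowed to adhere, nonadherent cells were washed off, and the rest were kept for 5 hours with 100 ng/ml LPS in medium free of serum. The other 8 arrays hold untreated cells of both genotypes, and serve here for the estimate of the spread and a comparison at the end. The labels number 4 replicates per group without saying that each is a separate mouse, so p-values measure the spread between these arrays, which may be partly technical.

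Lipin-1 is a phosphatidate phosphatase: it turns phosphatidate into diacylglycerol, the step before triacylglycerol and phospholipid synthesis. It can also enter the nucleus and act with transcription regulators of fat metabolism. The fld allele arose spontaneously and is known for fatty liver, poor fat storage and nerve disease in mice. LPS is sensed by Toll-like receptor 4 (TLR4), which switches on inflammatory genes through NF-kB and AP-1 and interferon genes through a separate adaptor branch.

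Each array gives a fluorescence brightness per spot. A level is the log2 processed signal minus the array's own 75th percentile over spots that are not controls, so a level of 0 is the brightness of the 75th percentile spot. A difference is the mean level of the arrays labelled fld minus that of the control arrays, both with LPS, on the log2 scale. Adjusted p is limma's, with Benjamini-Hochberg adjustment over all 17469 features tested, and a feature is called where it is under 0.05. A feature is a gene, read at its brightest kept probe, or a probe without a gene symbol. Where nothing else is said, a named gene was well above background on all 8 arrays, as were 15261 features. Spots with an outlier flag were left out, and such a spot is given as no value.

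The arrays labelled fld were dimmer and less alike than the control arrays. Their 75th percentiles were 386, 251, 411 and 189 units in arrays 1 to 4, against 418, 335, 627 and 456 in the controls. Between 58.7% and 65.4% of spots stood well above background on the arrays labelled fld, and between 59.4% and 62.6% on the controls. Levels correlated across features at 0.985 to 0.995 among the control arrays and at 0.961 to 0.993 among those labelled fld, where array 4 reached at most 0.981 with any other. The median SD of a feature was 0.18 (n = 4) in the controls and 0.24 (n = 4) in the arrays labelled fld. Each group was on a slide and a scan of its own, and the effect of the slide cannot be told apart from that of the genotype.

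Lpin1 itself separated 3 of the 4 arrays labelled fld from the controls. The array holds 4 Lpin1 probes on chromosome 12, for which the files give positions but no genome build. At probe 4 (chr12:16591654-16591713) the control levels were -2.61, -2.80, -2.23 and -2.59. Arrays 1 to 3 labelled fld read -5.0, -5.73 and -4.58 there, but array 4 labelled fld read -2.61, within the control range. Probe 2 (chr12:16591574-16591633) read -3.77, -4.2, -3.55 and -3.90 in the controls and -5.64, -6.41, -6.15 and -3.54 in the arrays labelled fld. Probe 3 (chr12:16591634-16591693) read -3.46, -3.40, -2.81 and -3.38 against -7.15, -6.45, -5.63 and -2.95. All 3 probes thus put array 4 labelled fld at the control level. The group differences at probes 2, 3 and 4 were -1.58, -2.28 and -1.92 and were not called (adjusted p over all probes 0.305, 0.171 and 0.163). Probe 1 (chr12:16590760-16590818), the brightest, did not follow the genotype, with -1.46, -1.40, -1.69 and -1.57 against -1.59, -1.40, -1.69 and -0.33. Array 4 labelled fld therefore goes against its label at the targeted gene, the groups are called by their labels throughout, and counts are given with and without it. Lpin2, a paralog, differed by -0.06 ± 0.16 (SE; adjusted p = 0.87), and Lpin3 was not well above background on any of the 8 arrays.

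**Figure D1:**
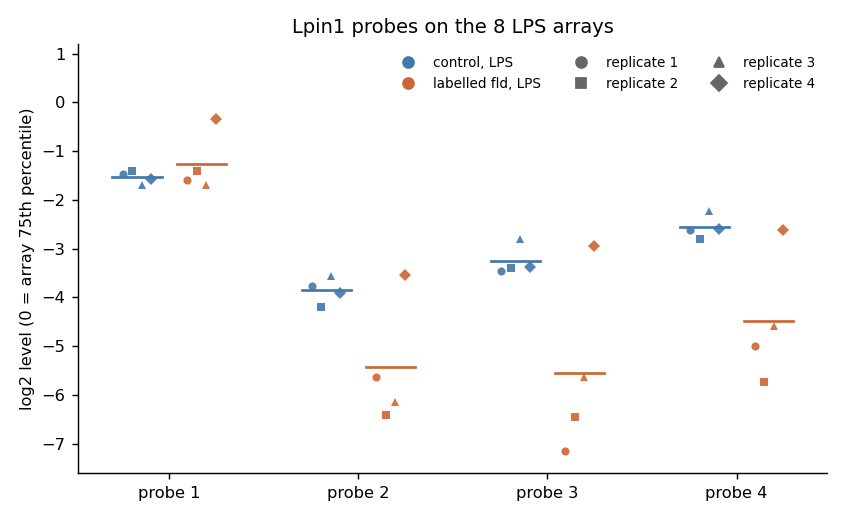
Log2 level of the 4 Lpin1 probes on the 8 LPS arrays, with 0 at the array's 75th percentile, a symbol for each replicate number and lines for group means. At probes 2 to 4, arrays 1 to 3 labelled fld lie below all controls and array 4 labelled fld lies at the control level.

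Across all features, 2816 were higher and 160 lower in the arrays labelled fld with LPS, 16.1% and 0.916% of those tested. Among features well above background on all 8 arrays, 2118 were higher (13.9%) and 124 lower (0.813%), and the median difference over all of them was 0.01. The 4 and 4 arrays did not overlap in 2399 features with the arrays labelled fld higher (15.7%) and in 416 with them lower (2.73%). Without array 4 labelled fld, 1666 were called higher and 72 lower. The lower count also moved by over 1.5 times without other single arrays: it was 59 without control array 3, 40 without control array 4, 199 without array 1 labelled fld and 73 without array 2 labelled fld. Without each of the 8 arrays in turn, 1433 features kept their higher call and 23 their lower call in all 8 fits.

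Most of the higher calls were dim. With the features split into 5 equal quintiles by mean level, in the dimmest, at a median level of -3.04, 38.8% of 3053 features were called higher and 0.426% lower, and the median difference was 0.57. From the second to the brightest quintile the share called higher was 21.6%, 6.78%, 1.64% and 0.623%, and the median difference 0.10, -0.04, -0.06 and -0.03. The share called lower was 1.25%, 1.28%, 0.688% and 0.426% there. Array by array, the median feature of the dimmest quintile lay 0.40, 0.51, 0.33 and 1.09 above the control mean on arrays 1 to 4 labelled fld, and 0.14, 0.06, -0.25 and 0.03 from it on the control arrays. Array 4 labelled fld, the highest of these, also had the lowest 75th percentile. Without it the dimmest quintile held 30.3% higher calls and a median difference of 0.39. The part that array brightness has in these calls was not tested.

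Other scalings moved the balance of the calls. The second scaling, which centres each array on its median over probes well above background on all 8 LPS arrays, gave 1961 higher and 213 lower. Quantile normalization gave 1426 higher and 415 lower, so 94.5% of the calls were higher in the main scaling, 90.2% in the second and 77.5% with quantiles. With quantiles the dimmest quintile had 22.4% higher and 6.62% lower calls, and the brightest 0.557% and 0.197%. The deposited value table, which divides each array by its median spot, put the median difference at -0.39 and gave 1405 higher and 6128 lower, so 18.7% of its calls were higher. Of the main calls, 1423 higher and 105 lower ones were also called in the same direction with quantiles. The genes below are therefore described first where their level is above 0, and the dim ones after them.

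**Figure D2:**
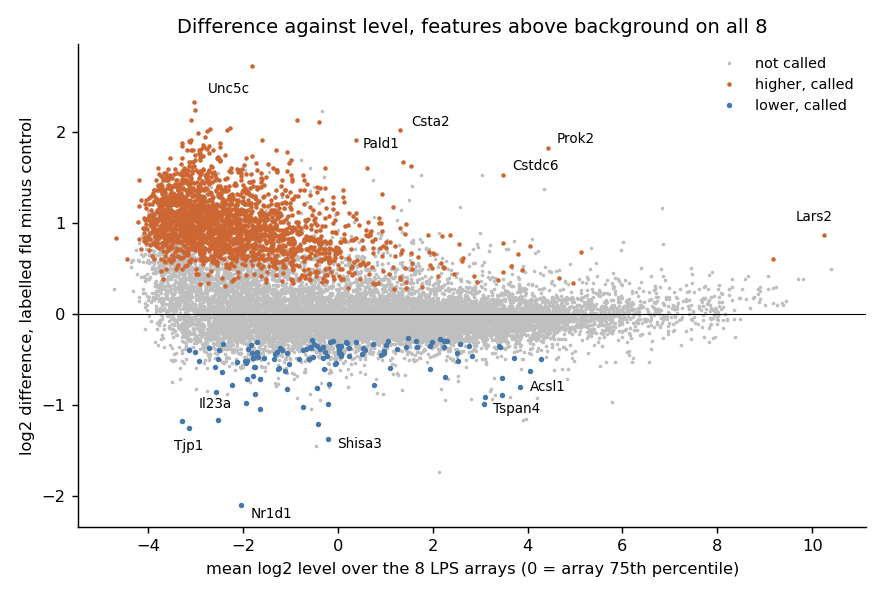
Each point is a feature above background on all 8 LPS arrays: the horizontal axis is its mean log2 level over these arrays, the vertical axis the log2 difference of arrays labelled fld minus controls, and colours mark called features. The 2118 higher calls crowd at low levels, where the dimmest quintile has 38.8% of its features called higher.

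**Figure D3:**
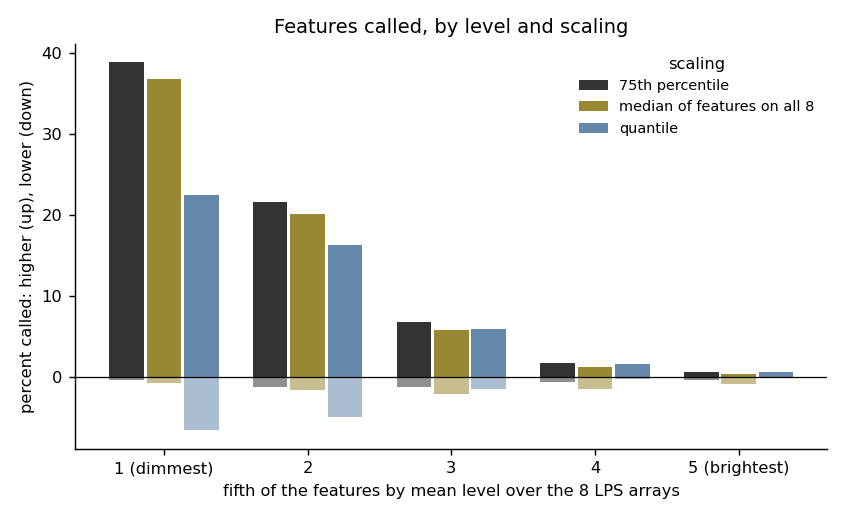
Percent of features called higher (bars above 0) and called lower (bars below 0) in each quintile by mean level over the 8 LPS arrays, for the main scaling, the second scaling and quantile normalization. The share called higher falls from 38.8% in the dimmest quintile to 0.623% in the brightest under the main scaling.

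Above a level of 0, 136 of 7777 features were higher (1.75%) and 50 lower (0.643%) in the arrays labelled fld, and 116 and 32 of these were also called with quantiles. The largest rises were in Csta2, Pald1, Prok2 and Tspo2. Pald1, which encodes paladin, a protein with phosphatase-like domains, read -0.49, -0.78, -0.84 and -0.23 in the controls and 1.43, 1.14, 1.38 and 1.35 in the arrays labelled fld. The groups stood apart, and the difference was 1.91 ± 0.17 (SE; 3.76-fold, adjusted p = 5.5e-05). Tspo2, a relative of the translocator protein known from red cell precursors, read 0.82, 0.70, -0.03 and 0.66 against 2.21, 2.14, 2.07 and 2.43, also without overlap. Its difference was 1.67 ± 0.17 (SE; 3.19-fold, adjusted p = 8.4e-05), and 1.60 without array 4 labelled fld. Hspb1, a small heat shock protein, read 0.46, 0.13, -0.08 and 0.52 against 1.65, 1.40, 1.70 and 1.57, a difference of 1.32 ± 0.19 (SE; adjusted p = 4.2e-04). Its probes disagreed: a second, dimmer Hspb1 probe gave -0.44 ± 0.38 (SE), and the mean over probes gave 0.44 with adjusted p = 0.236.

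More genes at these levels rose. Otud3, a deubiquitinase, read 0.31, 0.42, -1.17 and -0.29 in the controls and 1.17, 1.57, 1.24 and 1.72 in the arrays labelled fld, a difference of 1.61 ± 0.35 (SE; adjusted p = 0.00445). Slc35g3, a solute carrier, rose by 1.29 (adjusted p = 0.00674) and the neural cell adhesion molecule Ncam1 by 1.23 (adjusted p = 0.00621). These 3 calls held without each array in turn. The Riken transcript 4933406C10Rik rose by 1.18 (adjusted p = 0.0172) and was not called without control array 3 (adjusted p = 0.0691). Caly, a vesicle protein of neurons, rose by 1.63 (adjusted p = 0.0369) and was not called without control array 3 or 4 or array 2 or 4 labelled fld (adjusted p up to 0.14). Cyp17a1, a steroid hydroxylase, rose by 1.11 (adjusted p = 0.014) and was not called without array 4 labelled fld (adjusted p = 0.0756).

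In the stefin A family 2 genes rose, and so did Prok2 and S100a8. Stefins are small inhibitors of cysteine proteases such as cathepsins, Prok2 is a secreted peptide that myeloid cells make, and S100a8 and S100a9 encode calprotectin. Csta2 read 0.00, -0.33, 0.38 and 1.12 in the controls and 1.73, 2.57, 2.12 and 2.83 in the arrays labelled fld, a difference of 2.02 ± 0.42 (SE; 4.06-fold, adjusted p = 0.00354). Cstdc6 read 1.90, 3.08, 2.65 and 3.21 against 3.78, 4.29, 4.14 and 4.74, a difference of 1.53 ± 0.45 (SE; adjusted p = 0.0275). Neither gene's groups overlapped, and the other 2 kept Cstdc6 probes gave 1.52 and 1.44. Stfa2, Stfa2l1 and Stfa3 differed by 1.47, 1.66 and 1.38 without overlap and were not called (adjusted p 0.116, 0.0568 and 0.0575). So of 5 members measured, from 10 names chosen after the values were seen, 2 were higher and 0 lower, with a median of 1.53 against 0.01 over all features, of which 13.9% were higher. The 2 became 5 with a normexp background and with only the 8 LPS arrays in the fit, 4 with a trended and robust fit, and 1 with array weights or without control array 1 or 3 or array 2 or 4 labelled fld. In the controls LPS itself raised Csta2 by 3.43 and Cstdc6 by 4.68. The genes are of the same family, and whether a probe reads more than 1 of them was not tested. Csta2 kept its call without each array in turn, while Cstdc6 was not called without control array 1 or 3 or array 2 or 4 labelled fld (adjusted p up to 0.0865).

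The promoter windows of 3 members are shown for how alike they are. Each is the 250 bases before the start site in the RefSeq table of build GRCm38.p6, printed on the gene's own strand. Without gaps, Stfa2 and Stfa2l1 matched at 76.4% of 246 bases, Stfa2 and Stfa3 at 70.7% of 249, and Csta2 and Stfa2 at 32.7% of 223. Stfa2 lies at chr16:36408364-36408613 on the minus strand, Stfa2l1 at chr16:36156561-36156810 on the plus strand and Stfa3 at chr16:36455393-36455642 on the minus strand. They hold no match to the letters searched on both strands, namely the E-box, NF-kB, AP-1 (TGANTCA), cyclic AMP response (TGACGTCA) and interferon (GAAANNGAA and TTCNNNGAA) motifs, so no letter is in capitals.
Stfa2: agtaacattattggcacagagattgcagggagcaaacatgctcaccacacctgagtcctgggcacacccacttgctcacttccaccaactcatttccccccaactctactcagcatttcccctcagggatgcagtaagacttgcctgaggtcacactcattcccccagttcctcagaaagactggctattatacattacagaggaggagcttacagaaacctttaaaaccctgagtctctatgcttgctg
Stfa2l1: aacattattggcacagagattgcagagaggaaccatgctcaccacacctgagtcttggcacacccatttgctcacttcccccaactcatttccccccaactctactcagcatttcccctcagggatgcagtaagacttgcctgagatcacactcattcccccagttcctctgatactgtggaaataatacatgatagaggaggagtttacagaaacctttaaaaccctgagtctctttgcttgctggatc
Stfa3: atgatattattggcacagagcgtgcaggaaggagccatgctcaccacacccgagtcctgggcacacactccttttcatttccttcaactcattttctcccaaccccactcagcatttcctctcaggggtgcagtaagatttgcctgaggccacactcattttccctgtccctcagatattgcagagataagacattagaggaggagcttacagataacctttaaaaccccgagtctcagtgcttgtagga

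Prok2 was spread widely among the controls, at 1.5, 3.15, 4.90 and 4.48, and narrowly in the arrays labelled fld, at 5.46, 5.36, 5.25 and 5.29. Its difference was 1.83 ± 0.57 (SE; adjusted p = 0.0366), and its second probe gave 1.79. S100a8 read 3.09, 3.91, 3.91 and 3.82 against 4.53, 4.33, 4.70 and 4.18, a difference of 0.75 ± 0.24 (SE; adjusted p = 0.0402), which the second scaling did not call (adjusted p = 0.0529). S100a9, well above background on 3 control arrays and all 4 labelled fld, read -5.07, -3.06, -3.59 and -3.28 against -2.23, -0.21, -2.09 and -1.26, a difference of 2.30 ± 0.63 (SE; adjusted p = 0.019). The groups of all 3 genes lay apart, but the calls were near the threshold. Prok2 was not called without control array 1 or 2 or any 1 array labelled fld (adjusted p up to 0.0841). S100a8 was not called without control array 1, 3 or 4 or array 1, 2 or 3 labelled fld (adjusted p up to 0.124). S100a9 was not called without control array 1 or array 2 labelled fld (adjusted p up to 0.066).

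Neutrophils also express stefins, Prok2 and calprotectin, so neutrophil markers are given beside them. Of 12 markers 5 were above background on all 8 arrays, where 13.9% of all features were higher. Of these 5, Mpo (0.85, adjusted p = 0.00118) and S100a8 were higher and 0 lower. S100a8 is itself among the rises that the markers are set beside, so Mpo is the only separate call. Mpo lies in the dimmest quintile, where 38.8% of features were called higher, so its call does not stand out. Mmp8 differed by 0.82 (adjusted p = 0.081), Mmp9 by 0.05 and Camp by -0.40, none of them called. The mean level of the 5 was -1.33, -1.22, -0.89 and -0.93 in the controls and -0.39, -0.88, -0.37 and -1.09 in the arrays labelled fld, so 3 of these 4 were above all controls. Elane, Ltf, Ngp, Cxcr2, Retnlg and S100a9 were not above background on all 8 arrays. The part of other cells in these rises was not tested. In cultures read as a whole, more cells of a type and more RNA per cell cannot be told apart.

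**Figure D4:**
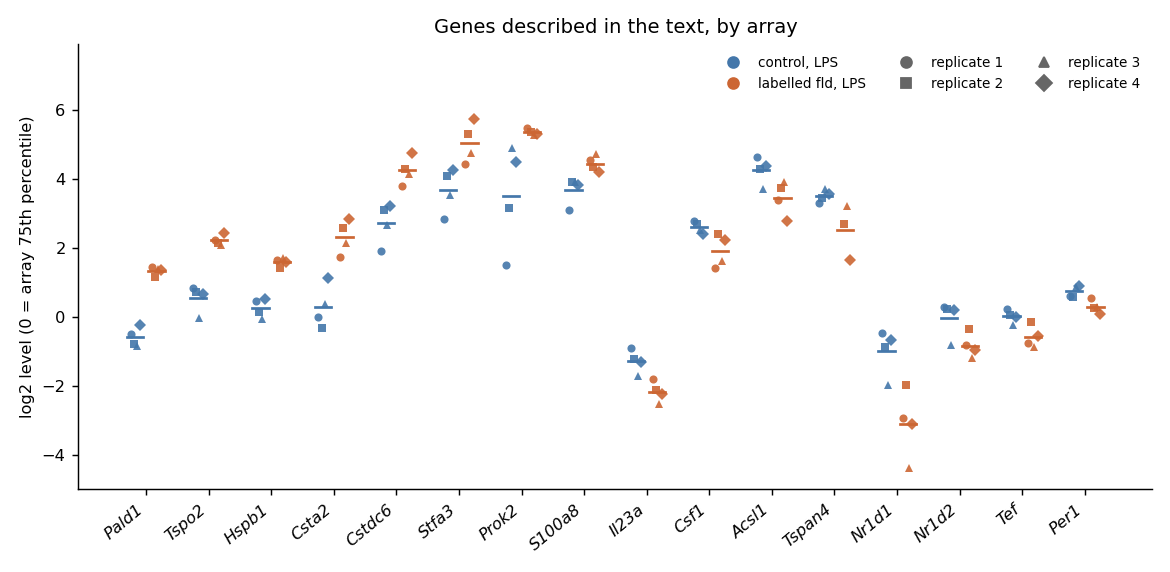
Log2 level of 16 named genes on each of the 8 LPS arrays, with 0 at the array's 75th percentile, controls in blue, arrays labelled fld in orange, a symbol for each replicate number and lines for group means. Pald1 and Tspo2 separate the groups widely, while the controls of Prok2 spread from 1.5 to 4.90.

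Among genes above a level of 0, falls in 7 genes held without each array in turn. Acot10, a mitochondrial acyl-CoA thioesterase, read 1.58, 1.40, 1.19 and 1.38 in the controls and 1.18, 0.83, 0.55 and 0.63 in the arrays labelled fld, a difference of -0.59 ± 0.15 (SE; adjusted p = 0.011). Cd55, the complement decay-accelerating factor, read 0.57, 0.45, 0.41 and 0.43 against -0.17, 0.09, -0.05 and 0.15, a difference of -0.46 ± 0.11 (SE; adjusted p = 0.00742). Neither gene's groups overlapped. Others were Gpn2, a GTPase (-0.43, adjusted p = 0.00908), B3galnt2, a glycosyltransferase of dystroglycan (-0.41, adjusted p = 0.00752), and Cdv3 (-0.46, adjusted p = 0.0127). For Cdv3 the mean over probes gave -0.23 and no call (adjusted p = 0.172). The list is completed by Nup37, a nucleoporin (-0.37, adjusted p = 0.0105), and Dnaja3, a mitochondrial chaperone (-0.36, adjusted p = 0.0139), both named after their values were seen.

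Further falls at these levels were lost without single arrays. Tspan4, a tetraspanin, read 3.28, 3.44, 3.71 and 3.56 in the controls and no value, 2.68, 3.21 and 1.65 in the arrays labelled fld, a difference of -0.99 ± 0.27 (SE; adjusted p = 0.021). Igsf8, a protein that binds tetraspanins, read 4.33, 3.73, 3.74 and 3.81 against 3.59, 3.23, 3.32 and 1.93, a difference of -0.89 ± 0.28 (SE; adjusted p = 0.0418). In both, array 4 labelled fld was far below the rest, and without it the differences were -0.55 (adjusted p = 0.0753) and -0.52 (adjusted p = 0.0717). Tspan4 was not called without control array 3 or 4 or array 4 labelled fld (adjusted p up to 0.0753), and Igsf8 was not called without any 1 control array or array 2 or 4 labelled fld (adjusted p up to 0.119). Fcmr, the Fc receptor for immunoglobulin M, fell by 0.70 (adjusted p = 0.0222) and was not called without control array 4 or array 1 or 3 labelled fld (adjusted p up to 0.0651). Bloc1s5, a subunit of a complex for lysosome-related organelles, fell by 0.44 (adjusted p = 0.0181) and was not called without control array 1 (adjusted p = 0.051). Lactb2, a mitochondrial endonuclease, fell by 0.43 (adjusted p = 0.0272) and was not called without control array 2, 3 or 4 or array 2 or 4 labelled fld (adjusted p up to 0.085). Banf1, a chromatin-binding protein of the nuclear envelope, fell by 0.43 (adjusted p = 0.0231) and was not called without control array 3 or 4 or array 2 or 3 labelled fld (adjusted p up to 0.0886).

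By size alone, the largest falls without overlap were in genes near or below the 75th percentile. Shisa3, a regulator of Wnt and FGF receptors, read 1.46, 0.19, -0.10 and 0.33 in the controls and -0.70, -0.88, -0.82 and -1.22 in the arrays labelled fld, a difference of -1.37 ± 0.39 (SE; adjusted p = 0.0221). It was not called without control array 1 or array 4 labelled fld (adjusted p up to 0.0693). Tjp1, the tight junction protein ZO-1, read -2.76, -2.71, -2.36 and -2.28 against -4.39, -3.68, -3.34 and -3.70, a difference of -1.25 ± 0.23 (SE; adjusted p = 0.00148). A normexp background correction gave -0.25 for Tjp1, with adjusted p = 0.257. Tanc1, a scaffold protein, fell by 1.21 (adjusted p = 0.00984) and Mmd, a membrane protein of maturing macrophages, fell by 1.02 (adjusted p = 0.0158). Tjp1, Tanc1 and Mmd kept their calls without each array in turn.

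Another 4 of the 12 largest falls lost their calls without single arrays. Fcer2a, the low-affinity IgE receptor CD23, fell by 1.05 (adjusted p = 0.0203) and was not called without control array 4 or array 1 or 3 labelled fld (adjusted p up to 0.0621). Cecr2, a bromodomain protein, fell by 0.86 (adjusted p = 0.0211) and was not called without control array 1 or 4 or array 1 labelled fld (adjusted p up to 0.076). Hpse, heparanase, fell by 0.83 (adjusted p = 0.0252) and was not called without control array 1, 3 or 4 or array 2 or 4 labelled fld (adjusted p up to 0.0724). Klk8, a kallikrein, fell by 0.77 (adjusted p = 0.0472) and was not called without any 1 control array or array 2 or 4 labelled fld (adjusted p up to 0.16). The 12 are completed by Tspan4, Igsf8, Mboat1 and Il23a.

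Of 15 circadian clock genes above background on all 8 arrays 4 were lower and 1 was higher, against 0.813% lower and 13.9% higher over all features. The 4 lower became 2 with the mean over probes or without control array 1 or 2 or array 1 or 3 labelled fld, and 1 without control array 4 or with only the 8 LPS arrays in the fit. The clock runs on activators (Arntl, Clock) that bind E-boxes and drive their own repressors (Per and Cry genes), the nuclear receptors Nr1d1 and Nr1d2 and the factors Dbp and Tef. The list of 19 names was chosen after these values were seen, and the labels do not give the hour at which cells were taken. Nr1d1, also called Rev-erb alpha, read -0.47, -0.87, -1.99 and -0.69 in the controls and -2.94, -1.99, -4.38 and -3.10 in the arrays labelled fld. Array 2 labelled fld met the lowest control, and the difference was -2.10 ± 0.46 (SE; 4.28-fold lower, adjusted p = 0.00455). The other 2 Nr1d1 probes, only slightly dimmer, gave 0.68 ± 0.19 and 0.16 ± 0.27 (SE), so the fall rests on 1 of 3 probes. The mean over its probes gave -0.42 (adjusted p = 0.316).

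The other lower clock genes changed less. Nr1d2 read 0.29, 0.21, -0.82 and 0.19 in the controls and -0.82, -0.36, -1.19 and -0.98 in the arrays labelled fld, a difference of -0.81 ± 0.25 (SE; adjusted p = 0.0407). Tef read 0.22, 0.04, -0.24 and 0.00 against -0.77, -0.15, -0.89 and -0.56, a difference of -0.60 ± 0.17 (SE; adjusted p = 0.024), and the mean over its probes was not called (adjusted p = 0.0541). The groups of both genes overlapped. Per1 read 0.60, 0.58, 0.85 and 0.89 against 0.53, 0.26, 0.28 and 0.09, a difference of -0.44 ± 0.11 (SE; adjusted p = 0.0152), with no overlap. Nr1d2 was not called without control array 1, 2 or 4 or array 1, 3 or 4 labelled fld (adjusted p up to 0.113), Tef was not called without control array 1, 2 or 4 or array 1 or 3 labelled fld (adjusted p up to 0.071), and Per1 was not called without control array 3 or 4 (adjusted p up to 0.0554). Per2 went the other way by 1.08 ± 0.17 (SE; adjusted p = 5.0e-04), though its second probe gave -0.30 ± 0.39 (SE) and the mean over probes 0.39 (adjusted p = 0.383). Per3, above background on 3 controls, rose by 1.04 (adjusted p = 0.0363) and was not called without control array 3 or array 4 labelled fld (adjusted p up to 0.138). Quantile normalization gave 0.54 for Per3 and no call (0.198). The other 10 were not called, among them Arntl at -0.00, Clock at -0.11, Dbp at 0.17 and Nfil3 at 0.21. On the separate untreated arrays Nr1d1 differed by -2.63 (adjusted p = 0.00553), Nr1d2 by -0.99 (0.0686), Tef by -1.1 (0.00273), Per1 by -0.52 (0.0251) and Per2 by 0.69 (0.0263). Per3 differed there by 0.12 (0.904), and Dbp, not called with LPS, by -0.85 (0.0221).

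E-boxes, the letters CACGTG on either strand, lay in the 250 bases before both starts of Tef and 1 start of Per1, and these windows are shown with the E-box in capitals. The windows of Nr1d1 and Nr1d2, the remaining lower clock genes, and of the other start of Per1 held no E-box. Of 16 clock genes in the RefSeq promoter set 5 held one (31.2%), against 6.86% of 27025 genes and 9.6% of genes above background on all 8 arrays. Among genes lower in the arrays labelled fld it was 14 of 99 (14.1%), and among higher ones 82 of 1225 (6.69%) or, above a level of 0, 13 of 88 (14.8%). The windows of Tef are chr15:81802423-81802672 on the plus strand and chr15:81811164-81811413 on the plus strand, and that of Per1 is chr11:69098699-69098948 on the plus strand. The E-boxes begin at -127, -138 and -166 relative to the start site.
Tef, first start: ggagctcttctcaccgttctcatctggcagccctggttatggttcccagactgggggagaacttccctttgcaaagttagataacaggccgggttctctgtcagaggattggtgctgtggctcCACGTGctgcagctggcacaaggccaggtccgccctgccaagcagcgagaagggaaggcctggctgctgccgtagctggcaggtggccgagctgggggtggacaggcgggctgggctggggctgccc
Tef, second start: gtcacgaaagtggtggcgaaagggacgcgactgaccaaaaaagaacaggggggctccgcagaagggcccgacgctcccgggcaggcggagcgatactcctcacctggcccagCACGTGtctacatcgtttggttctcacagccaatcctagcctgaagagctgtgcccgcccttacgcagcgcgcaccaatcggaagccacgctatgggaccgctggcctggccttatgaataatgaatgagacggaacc
Per1: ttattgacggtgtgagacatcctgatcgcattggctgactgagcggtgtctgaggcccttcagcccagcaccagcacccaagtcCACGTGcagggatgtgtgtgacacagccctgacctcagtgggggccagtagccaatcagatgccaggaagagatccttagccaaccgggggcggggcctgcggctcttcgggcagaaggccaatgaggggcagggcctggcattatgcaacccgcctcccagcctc

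Of 39 cytokine and chemokine genes above background on all 8 arrays, 0 were higher, 2 lower and 37 not called, with a median difference of 0.06. Differences in the list ran from -1.74 to 1.21, and the genes at these ends were not called. Over all features 13.9% were higher and 0.813% lower. The list's median level of 3.02 lies in the brightest quintile, where 0.623% were higher and 0.426% lower. Il23a, the p19 subunit of interleukin-23, read -0.91, -1.23, -1.73 and -1.31 in the controls and -1.80, -2.13, -2.53 and -2.25 in the arrays labelled fld. The groups did not overlap, and the difference was -0.88 ± 0.27 (SE; 1.84-fold lower, adjusted p = 0.0375). LPS raised Il23a by 5.75 in the controls and by 4.51 in the arrays labelled fld, and that gap of -1.24 was not called (adjusted p = 0.335). Csf1, the growth factor of macrophages, read 2.78, 2.69, 2.51 and 2.40 against 1.40, 2.40, 1.60 and 2.22, so array 2 labelled fld met the lowest control. Its difference was -0.69 ± 0.21 (SE; adjusted p = 0.0359), and quantile normalization did not call it (adjusted p = 0.076). Il23a was not called without control array 1, 2 or 4 or array 2, 3 or 4 labelled fld (adjusted p up to 0.105), and Csf1 was not called without control array 1, 2 or 3 or array 1 or 3 labelled fld (adjusted p up to 0.103). Without any 1 of the 8 arrays the list held 0 or 1 lower member, and it held 9 with the deposited value table.

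The classical LPS products Il6, Il1b, Tnf, Ccl2, Cxcl1, Il12b, Ptgs2, Nos2 and Il10 were not called. Il6 read 7.15, 6.77, 6.20 and 6.86 in the controls and 6.69, 6.60, 6.62 and 7.31 in the arrays labelled fld, a difference of 0.06 with a 95% interval of -1.08 to 1.19. Il1b differed by 0.25 (-0.16 to 0.66), Tnf by -0.17 (-0.59 to 0.25) and the chemokine Ccl2 by -0.05 (-1.41 to 1.31). Cxcl1, a chemokine for neutrophils, differed by -0.03 (-0.65 to 0.58) and Il12b by -0.11 (-1.06 to 0.84). The intervals of Il6 and Ccl2 reach beyond 1 in both directions, so these arrays leave room for sizeable differences. Ptgs2, the inducible cyclooxygenase, differed by 0.22 (-0.60 to 1.03), and Nos2, the inducible nitric oxide synthase, by -0.51 (-1.31 to 0.28). Il10, an anti-inflammatory cytokine, read 0.20, 0.50, 0.53 and 0.39 against 0.95, 1.5, 0.42 and 2.33, a difference of 0.89 ± 0.37 (SE; adjusted p = 0.122). It was called without array 3 labelled fld, at 1.19 (adjusted p = 0.0287), and was 0.55 without array 4 (adjusted p = 0.368). Array 4 labelled fld was the highest of the 8 for Il10, Il6 and Ptgs2.

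The signalling lists around these genes had few calls. They were 0 of 26 NF-kB genes, 0 of 24 TLR4 receptor and adaptor genes and 0 of 24 MAP kinase and phosphatase genes, with medians of 0.04, -0.05 and 0.04. Their median levels were 4.75, 1.96 and 2.10, in the brightest quintile for the first list and the fourth for the others. In the fourth quintile 1.64% of features were called higher and 0.688% lower, and in the brightest 0.623% and 0.426%. A count of 0 therefore does not set these lists apart. Of 24 AP-1 and immediate early genes 1 was higher, Fosb, by 0.88 (adjusted p = 0.00178). Fosb lies in the second quintile from the dimmest, where 21.6% of features were called higher. Its relatives Jun and Fos differed by -0.13 (-0.36 to 0.09) and -0.39 (-1.0 to 0.22).

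The NF-kB letters GGGANTTTC, searched on both strands, lay at -153 relative to the start of Csf1, whose window at chr3:107760470-107760719 on the minus strand is shown with the match in capitals. Of the cytokine list 7 of 30 genes with a window held these letters (23.3%), against 1.11% of 27025 genes.
Csf1: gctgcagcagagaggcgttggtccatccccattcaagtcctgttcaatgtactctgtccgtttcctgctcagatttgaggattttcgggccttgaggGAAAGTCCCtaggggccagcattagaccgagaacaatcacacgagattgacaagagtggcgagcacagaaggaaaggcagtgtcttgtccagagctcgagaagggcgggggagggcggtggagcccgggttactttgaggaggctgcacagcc

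Interferon-induced genes gave no call, and the arrays labelled fld split on them. Of 41 type I interferon-stimulated genes above background on all 8 arrays 0 were higher and 0 lower, with a median difference of 0.16, and of 25 interferon-gamma-type genes also 0, with a median of -0.11. The median levels of these lists, 3.15 and 2.98, lie in the brightest quintile, where 0.623% of features were called higher and 0.426% lower. Over the 41 genes the mean level was 3.29, 3.11, 2.66 and 3.10 in the controls and 2.38, 4.0, 2.64 and 3.71 in the arrays labelled fld. Arrays 2 and 4 labelled fld lay above all controls, and arrays 1 and 3 below them. Single genes were chosen after this was seen. Ifit1, an RNA-binding antiviral protein, read 3.54, 3.16, 2.35 and 3.21 against 1.69, 4.55, 2.35 and 4.46. Cxcl10, a chemokine for T cells, read 1.37, 1.28, -0.01 and 0.98 against -0.55, 3.27, 0.06 and 3.87. Mx1, an antiviral GTPase, read 0.60, 0.41, -0.38 and 0.12 against -0.68, 1.72, -0.67 and 1.44. In all 3 the arrays labelled fld spread further than the controls. Ifnb1, the interferon beta gene, read -3.65, -2.55, -4.76 and -3.64 against -3.17, -0.94, -3.64 and -1.98, and its difference of 1.21 (-0.21 to 2.63) was not called (adjusted p = 0.273). The letters GAAANNGAA, the core of the interferon-stimulated response element, were in 13 of 32 windows of the type I list (40.6%), against 8.18% of all genes.

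**Figure D5:**
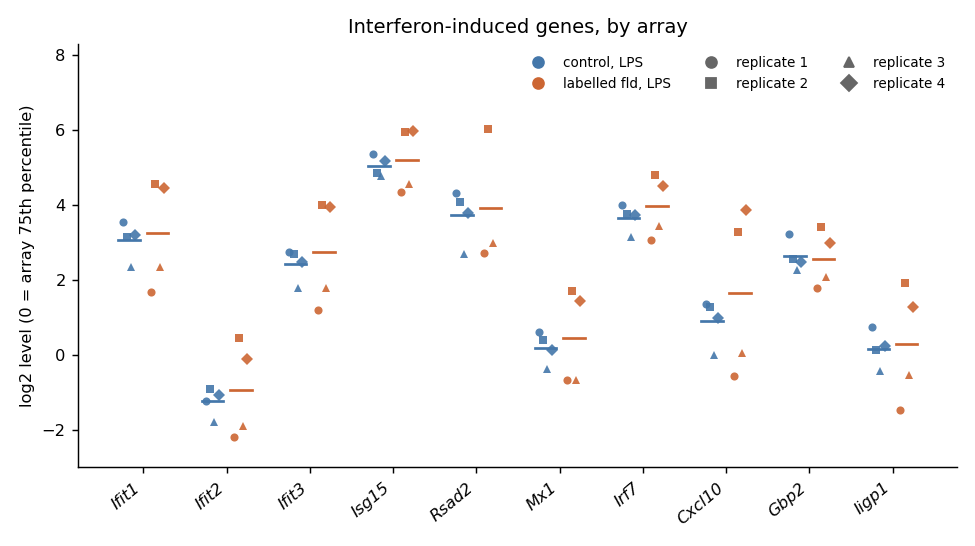
Log2 level of 10 interferon-induced genes on each of the 8 LPS arrays, with 0 at the array's 75th percentile, controls in blue, arrays labelled fld in orange, a symbol for each replicate number and lines for group means. For Ifit1, Cxcl10 and Mx1, arrays 2 and 4 labelled fld lie above all controls while arrays 1 and 3 lie at or below the middle of the controls.

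Genes of lipid metabolism, the pathway of the mutated enzyme, were mostly not called. Of 37 genes of glycerolipid and phospholipid synthesis 1 was higher and 1 lower, with a median of -0.03. Over all features 13.9% were called higher and 0.813% lower. In the fourth quintile, where the list's median level lies, the shares were 1.64% and 0.688%. Ptdss2, a phosphatidylserine synthase, read -0.59, -0.60, -1.03 and -0.66 in the controls and -0.33, -0.31, -0.29 and -0.12 in the arrays labelled fld, a difference of 0.46 ± 0.11 (SE; adjusted p = 0.011). Mboat1, a lysophospholipid acyltransferase, read -3.15, -2.60, no value and -2.08 against -4.04, -3.70, -3.77 and -3.64, a difference of -1.18 ± 0.29 (SE; adjusted p = 0.0113), and was not called without control array 4 (adjusted p = 0.0686). Dgat2, which makes triacylglycerol from diacylglycerol, differed by -0.11 (-0.45 to 0.23), and Gpat3, which acts before the lipin step, by 0.26 (-0.19 to 0.71).

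Of 22 genes for the lipid droplet and for fat uptake and breakdown 3 were higher and 1 lower, a higher share close to the 13.9% of all features. The 3 became 1 with quantile normalization, with normexp, or without control array 3 or array 2 or 4 labelled fld, and the 1 lower became 0 without control array 1, 2 or 4 or array 1 or 4 labelled fld. The higher ones were dim: Plin5 rose by 1.1 (adjusted p = 8.1e-04), G0s2, an inhibitor of lipolysis, by 0.82 (0.0186) and Plin4 by 0.58 (0.0496). G0s2 was not called without control array 3 or array 2 or 4 labelled fld (adjusted p up to 0.0697), and Plin4 was not called without any 1 control array or array 2 or 4 labelled fld (adjusted p up to 0.149). Quantile normalization called neither G0s2 (0.168) nor Plin4 (0.159). Plin2, the droplet coat protein, read 6.12, 6.25, 6.03 and 6.49 against 7.12, 6.19, 6.75 and 6.26, and its difference of 0.35 was not called (adjusted p = 0.386). Acsl1, an acyl-CoA synthetase, read 4.63, 4.29, 3.69 and 4.35 in the controls and 3.37, 3.73, 3.89 and 2.76 in the arrays labelled fld, with overlap at control array 3, and the difference was -0.80 ± 0.24 (SE; adjusted p = 0.0286). Its other 2 probes gave -0.63 and -0.53. Acsl1 was not called without control array 1, 2 or 4 or array 1 or 4 labelled fld (adjusted p up to 0.0924).

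Of 28 genes of fatty acid oxidation 3 were higher and 0 lower, with a median of -0.01. Ppargc1a, a coactivator with which lipin-1 is known to act, read -3.17, -3.38, -4.94 and -3.77 in the controls and -2.17, -2.40, -2.42 and -1.18 in the arrays labelled fld, a difference of 1.77 ± 0.33 (SE; adjusted p = 0.00169). Cpt1b, a muscle carnitine palmitoyltransferase, rose by 1.40 (adjusted p = 0.00369), and the nuclear receptor Ppard rose by 1.0 (adjusted p = 7.8e-05), from -3.35 ± 0.07 to -2.36 ± 0.12 (SD, n = 4 each). Ppargc1a and Ppard lie in the dimmest quintile, where 38.8% of features were called higher, and 3 of 28 is a smaller share than the 13.9% of all features. Of 25 diacylglycerol kinases, protein kinases C and effectors 3 were higher and 0 lower, with a median of -0.08. They were Plcg1, a phospholipase C (1.15, adjusted p = 0.00106), Prkcq, protein kinase C theta (0.67, 0.0126), and Rasgrp4, a diacylglycerol-binding Ras exchange factor (0.62, 0.0171). Prkcq was not called without control array 3 (adjusted p = 0.0513), nor was Rasgrp4 without control array 3 (adjusted p = 0.0649). Of 32 genes of sterol and fatty acid synthesis 1 was higher, Fads2, a desaturase, by 0.89 (adjusted p = 5.4e-04), and the median was -0.15. Fads2 lies in the second quintile from the dimmest, where 21.6% of features were called higher.

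Few genes changed in the remaining lists. Of 36 lysosome and autophagy genes 1 was lower, Glb1, the lysosomal beta-galactosidase, which read 3.81, 3.25, 3.44 and 3.51 against no value, 2.65, 3.33 and 1.80, a difference of -0.91 ± 0.27 (SE; adjusted p = 0.0306). Without array 4 labelled fld its difference was -0.51 (adjusted p = 0.15), and it was not called without control array 1, 3 or 4 or array 2 or 4 labelled fld (adjusted p up to 0.15). Of 24 death and survival genes 1 was higher, Ripk3, a kinase of necroptosis, which read 1.64, 1.95, 2.16 and 2.08 against 2.55, 2.57, 2.59 and 2.20. Its difference was 0.52 ± 0.13 (SE; adjusted p = 0.0116), and 0.61 without array 4 labelled fld. Of 26 glycolysis and hypoxia genes 1 was higher, Epas1, a hypoxia-inducible factor, by 0.69 (adjusted p = 0.0116), and quantile normalization did not call it (0.176). Epas1 lies in the dimmest quintile, where 38.8% of features were called higher. Counts of 0 in both directions were found for 12 MHC class II and costimulation genes, 21 of eicosanoids, 16 of cholesterol efflux and LXR targets, 28 of the unfolded protein response and 36 of oxidative phosphorylation. The same held for 22 genes of oxidative stress, 20 of nitric oxide, arginine and alternative activation, 23 of the cell cycle and 29 ribosomal proteins. Their medians ran from -0.17 to 0.17. The median levels of the lists in this paragraph lie between the third and the brightest quintile. From the third quintile on, 6.78%, 1.64% and 0.623% of features were called higher and 1.28%, 0.688% and 0.426% lower, so counts near 0 do not set these lists apart.

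The largest rises of all were in dim genes better known from other tissues. Olfr1222, an olfactory receptor, read -2.37, -2.35, -4.43 and -3.58 in the controls and -0.80, -0.37, -0.66 and 0.01 in the arrays labelled fld, a difference of 2.73 ± 0.53 (SE; 6.63-fold, adjusted p = 0.00228). Unc5c, a netrin receptor of neurons, read -4.02, -4.0, -4.76 and -4.02 against -1.87, -1.92, -1.89 and -1.80, a difference of 2.33 ± 0.20 (SE; adjusted p = 5.5e-05). Both groups of both genes lay apart. Lce3c, a protein of the skin envelope, rose by 2.14, Olfr282 by 2.13, Cypt4, a testis transcript, by 2.11, Uox, the urate oxidase of liver, by 2.04 and Pcdhb4, a protocadherin, by 2.03. With 4932435O22Rik (2.24), Csta2, Klb, a coreceptor for FGF21 (2.01), Adgrg5 (1.99) and Ptprk (1.95) these are the 12 largest without overlap. Of the 12, Klb alone lost its call when single arrays were left out, without array 2 or 4 labelled fld (adjusted p up to 0.0634). Of 248 olfactory receptor genes 182 were higher (73.4%) and 0 lower, with a median difference of 0.99 at a median level of -2.70. Over all features 13.9% were higher, and in the dimmest quintile 38.8%. With quantile normalization 140 were higher and 0 lower.

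Features above background on all 4 arrays of only 1 group were counted apart. Of 689 features above background on all 4 arrays labelled fld but not on all 4 controls, 562 were higher (81.6%), and of 796 with the reverse 24 were lower (3.02%). Such features had to differ to be sorted so, and nothing is read from these shares. Called features above background on all 4 arrays of 1 group and on 0 of the other numbered 108 for fld and 2 for the controls. For these a bound was set: the bright group's mean against, on each dim array, the higher of the probe's own level and the lowest level well above background. In the genes named here the probe's own level was always the higher, so the folds are fitted differences and not lower limits. Lypd6 was 5.92-fold higher in the arrays labelled fld (adjusted p = 0.00947), Asic2, an ion channel, 5.75-fold (1.8e-04), and Slc17a4, an organic anion carrier, 5.67-fold (6.9e-04). Svs1, a seminal vesicle protein, followed at 5.5-fold and Adh1, an alcohol dehydrogenase, at 5.45-fold. On the control side Ticam2, the TLR4 adaptor TRAM, was 2.02-fold lower in the arrays labelled fld (adjusted p = 0.0156). Its log2 difference was -1.01 (-1.59 to -0.44), with levels of -4.34, -4.23, -4.76 and -4.37 against -6.00, -4.61, -5.75 and -5.40. With a normexp background correction the sign of Ticam2 turned, to 0.25 (adjusted p = 0.379).

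Markers of the cells themselves were lowest on array 4 labelled fld. All 11 macrophage markers were above background on all 8 arrays and 0 were called, with a median of -0.48, or -0.02 without array 4 labelled fld. Their mean level was 3.95, 4.2, 4.18 and 4.37 in the controls and 4.5, 4.04, 3.55 and 3.06 in the arrays labelled fld. Adgre1, the F4/80 antigen, differed by -0.97 (adjusted p = 0.0971), Csf1r, the receptor of Csf1, by -0.60 (0.428) and Cd14, a co-receptor for LPS, by 0.12 (0.732). The 13 large peritoneal macrophage markers gave 0 calls and a median of -0.38, or -0.04 without array 4 labelled fld. Their means were 1.85, 1.95, 2.24 and 2.14 in the controls and 2.36, 1.78, 2.12 and 0.80 in the arrays labelled fld.

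Markers of lymphocytes and other cells were dim, with a few calls. They are set beside 13.9% called higher over all features, 38.8% in the dimmest quintile and 21.6% in the next. Of 8 T and NK cell markers 3 were higher: Cd3e by 1.41 (adjusted p = 1.4e-04), Cd247 by 1.32 (0.0293) and Cd4 by 0.96 (0.00145). The list's mean was -2.01, -1.86, -1.96 and -1.91 in the controls and -1.82, -1.41, -1.94 and -0.76 in the arrays labelled fld, and Cd3d, Cd8a and Cd28 were among the 7 markers not above background on all 8 arrays. Cd247 was not called without control array 2, 3 or 4 or array 1 or 4 labelled fld (adjusted p up to 0.0956), nor with quantile normalization (0.0609). Of 8 dendritic cell markers 3 were higher, Flt3 by 0.98 (0.00887), Itgae by 0.83 (0.00369) and Zbtb46 by 0.56 (0.0081), at list means from -1.43 to -0.86 in the controls and from -1.02 to -0.79 in the arrays labelled fld. With quantile normalization Zbtb46 alone of these 3 was called (0.0351), while Flt3 was 0.54 (0.188) and Itgae 0.45 (0.0759). Of 10 B cell markers 1 was lower, Fcer2a, at list means from 1.56 to 1.71 against 1.1 to 1.70. Over all features 0.813% were lower. Only 1 of the 10 differences was positive, and their median was -0.12. Cr2, a B cell marker not above background on all 8 arrays, was also called lower. Fcmr, listed among the B cell markers under its older name Faim3, was missed in the count of 10. It was lower too (-0.70, adjusted p = 0.0222), with the limits given above. Of 8 mesothelial and fibroblast markers Col1a2 rose by 1.39 (0.0102) and Krt8 by 0.97 (0.0486), and Krt8 was not called without any 1 control array or array 1, 2 or 4 labelled fld (adjusted p up to 0.155), nor with the second scaling (0.0597) or quantiles (0.196). Tek rose among 5 endothelial and erythroid markers, by 1.08 (0.0033), and Cd226 among 8 of small peritoneal macrophages and monocytes, by 0.85 (0.00604). Quantile normalization gave 0.36 for Cd226 and no call (0.189). Mast cell and eosinophil markers had 0 calls among 10 and 3. What these cells contribute was not tested.

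On the untreated arrays fewer features differed between the genotypes. Among the 15261 features 605 were higher (3.96%) and 34 lower (0.223%) in the untreated arrays labelled fld. Of the 2118 higher with LPS, 1977 lay above the untreated control, 506 of them called there. Of the 124 lower with LPS, 94 lay below it, 11 of them called. The dimmest quintile again held most of the higher calls, 12.2% of its features against 0.786% of the brightest. The difference between the genotype differences with and without LPS was called by limma for 0 of the 15261 features (0%), and 1305 had an unadjusted p under 0.05 (8.55%). The untreated arrays are separate from the LPS arrays, but whether they come from the same mice is not stated.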

How the data were processed

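Agilent 1-colour arrays of 16 samples were used, of which 8 were compared. Per the file headers, each was read with Agilent Feature Extraction 9.5.1.1 (design 014868), which gives a processed signal intensity after background subtraction and detrending, not scaled between arrays. RNA was extracted with Trizol, amplified and labelled with Cy3, per the labels' protocols. The deposited value table holds a ratio, the processed signal over the array's median spot, as tested against the scanner files. The genome build of the probe positions was not given in the sources used here. The number of arrays limits the precision.

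Processed signals were taken to log2, less each array's 75th percentile over spots that are not controls. Outlier-flagged spots (1.34%) were left out. A probe was kept if every array of some group had it well above background. All 16 arrays entered 1 fit with a mean per group (limma 3.58.1, R 4.3.3), tested on simulated data. Gene names were updated through RefSeq: 22951 of 41174 probes by accession, 6659 by symbol and 3105 by synonym, and 8459 kept the file's name.

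Named genes were fixed names, the 12 largest differences each way among called features without overlap, up to 5 bounds each way, and up to 4 called members a list (2 in the other direction). Genes brighter than the 75th percentile that quantile normalization also called, the clock and stefin lists and the E-box were added after seeing the data, as were the interferon genes shown by array, S100a9, Csf2, Csf3 and Lars2. Members and lists were chosen with earlier results of these data known. Other scalings, filters, fits and left-out arrays were tried.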

Additional observations from a re-analysis of the deposited data

Results flagged for a closer look

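Among 250 groups of 4 arrays tested for named genes and probes, 13 had an array far from the other 3, where chance flags about 1 in 20 groups. Among the arrays labelled fld these levels were Il6 on array 4 labelled fld (7.31, the others 6.60 to 6.69), Pcdhb4 on array 4 labelled fld (-0.76, the others -1.58 to -1.47), Ripk3 on array 4 labelled fld (2.20, the others 2.55 to 2.59) and Tek on array 4 labelled fld (-2.35, the others -3.33 to -3.20). All 4 were on array 4. Among the controls they were Unc5c on control array 3 (-4.76, the others -4.02 to -4.00), Igsf8 on control array 1 (4.33, the others 3.73 to 3.81), Bloc1s5 on control array 1 (0.39, the others 0.23 to 0.24), Ptdss2 on control array 3 (-1.03, the others -0.66 to -0.59), G0s2 on control array 3 (-4.82, the others -4.11 to -3.99), S100a8 on control array 1 (3.09, the others 3.82 to 3.91), Per3 on control array 3 (-5.49, the others -4.46 to -4.43), Nr1d2 on control array 3 (-0.82, the others 0.19 to 0.29) and Lpin1 probe 3 on control array 3 (-2.81, the others -3.46 to -3.38). Control array 3 gave 6 of these and control array 1 gave 3.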

How the results depend on the processing

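Lower calls depended on the scaling and on single arrays. Over all features and over those above background on all 8 arrays, the lower count was 253 and 213 with the second scaling, 638 and 415 with quantile normalization and 6456 and 6128 with the value table. It was 103 and 74 with no filter on dim probes, 54 and 38 with only the 8 LPS arrays in the fit, and 94 and 66 without both arrays labelled fld replicate 4. The higher count over all features was 1848 with quantile normalization, and that over features on all 8 arrays was 1405 with the value table. Without each LPS array in turn the higher counts ran from 2062 to 3068 and from 1493 to 2345, and the lower counts from 61 to 235 and from 40 to 199. With the replicate number as a block they were 2920 and 165 over all features and 2202 and 131 on all 8, so neither moved by over 1.5 times, while the 2 lower cytokine genes, Il23a and Csf1, and the lower lysosome gene, Glb1, were not called with it. Same-numbered control and fld LPS arrays deviated together at -0.09, 0.12, 0.37 and 0.01, and 3 of 8 arrays correlated best with their own number. Between untreated and LPS arrays this held for 6 of 8 control arrays and 2 of 8 labelled fld. Whether same-numbered arrays share more than a number cannot be told from these values. Of 87 named genes called, 82 kept the call with that block, 75 with quantile normalization, 61 with only the 8 LPS arrays and 66 without array 4 labelled fld. The difference of Lars2, called at 0.87, was -0.03 with quantile normalization, and that of Ticam2 was 0.25 with normexp. The causes were not tested.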

Other observations

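Further falls held without each of the 8 arrays in turn, and with the second scaling and quantile normalization. They included Cnr2, the cannabinoid receptor of immune cells, at a difference of -0.72, Ptpn14, a tyrosine phosphatase, at -0.68, Grb10, an adaptor of the insulin receptor, at -0.64, and Eid2 at -0.63. Suclg2, a subunit of succinyl-CoA synthetase in mitochondria, differed by -0.50 and Mapk12, a p38 kinase, by -0.48. These genes were chosen from the 23 such falls after their values were seen.

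Other gene families that macrophages are not known for were counted beside the olfactory receptors, where 13.9% of all features and 38.8% of the dimmest quintile were called higher. Of 21 vomeronasal receptor genes 10 were higher (47.6%) and 0 lower (median difference 0.83 at a median level of -2.81), of 12 protocadherin genes 8 (66.7%) and 0 (0.89 at -2.38), and of 17 keratin genes 8 (47.1%) and 0 (0.61 at -2.66). Of 235 numbered zinc finger genes, at a median level of -0.55, 15 were higher (6.38%, below the share of all features) and 2 lower, with a median of 0.02. With quantile normalization the higher counts were 7, 6, 5 and 10, and the lower counts 0, 0, 0 and 10.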
